A study of Homo sapiens with 115 samples.

Results

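SNCG encodes γ-synuclein, and its entry was read from a matrix of 43386 gene entries counted in 72 p53+/+ and 43 p53-/- single cells of HCT116, a human colorectal cancer line. The symbol had 1 entry in the matrix (NCBI gene 6623), which was taken by name, and SNCG counts were present in every cell. The cells were picked at 5 stages around irradiation: [N] cells at day 0, pre-budding persister cells [P] at day 7, budding persister cells [B] at day 10, the newly budded progeny [S] at day 10, and repopulated cells [R] at day 30. Each stage held cells of a line with intact p53 (p53plus in the labels, p53+/+ below) and of a line without it (p53minus, p53-/- below). The numbers of p53+/+ cells were 6, 6, 28, 21 and 11 from [N] to [R], and those of p53-/- cells were 7, 11, 8, 9 and 8. A dose of 8 Gy stands in the labels of all cells, [N] included, although the study describes its [N] cells as unirradiated. Persister here means a giant, non-dividing cell that outlives the dose and later releases small dividing progeny. Both lines were obtained by homologous recombination and came from another laboratory under 1 designation each. The study's text gives other numbers of cells per line than the labels, which were used here, so every difference between the lines rests on the labels.

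γ-Synuclein is a member of a family of small soluble proteins that also holds β-synuclein (SNCB). It is abundant in peripheral neurons and is also made by many carcinomas, where its gene is known to be switched on as promoter methylation is lost. In tumour cells it has been described as a chaperone-like partner of HSP70, the oestrogen receptor, AKT and MAP kinases, and as a binder of BubR1, the mitotic checkpoint kinase encoded by BUB1B. p53 is the transcription factor that halts the cell cycle after DNA damage, partly through CDKN1A (p21).

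In GENCODE v44 on GRCh38, SNCG lies on the plus strand of chromosome 10 at chr10:86958599-86963258 and its transcript SNCG-202 has 5 exons, with coding sequence from exon 1 at 86958698 to exon 5 at 86962982. The RefSeq span of the gene starts further upstream, at 86955759, and there shares 1857 bases with MMRN2, a gene on the opposite strand that in GENCODE v44 runs from 86935540 to 86969481 and so spans all of SNCG. Since strand is not stated for the counting, reads from the shared bases cannot be assigned to either gene with certainty. The study's knockout of SNCG used a pair of designed guides, shown here because they mark the part of the gene that was cut. Both matched GRCh38 on the plus strand of chromosome 10, inside coding exon 3 of SNCG-202, at chr10:86960095-86960117 for sg1 and chr10:86960098-86960120 for sg2. Capitals mark the PAM, the bases next to the target that Cas9 needs.
sg1: gaacatcgcggtcacctccgGGG
sg2: catcgcggtcacctccggggTGG
No library is labelled as a knockout of SNCG, so the values below are those of the unedited gene.

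Depth was not limiting for SNCG. Totals ran from 4056329 to 100173192 counts a cell with a median of 34238237, and the lowest SNCG count in any cell was 31, in a [B] p53-/- cell. At least 10 counts were present in all cells of both lines, 72 and 43 (100%, exact Clopper-Pearson 95% interval 96.8 to 100). After every cell was thinned to 15435056 counts, which left out 12 shallower cells, SNCG was still found in the remaining 62 p53+/+ and 41 p53-/- cells. The cells carry no molecular identifiers, so the counts are of reads. The intervals here and below treat cells as independent draws, although cells share lines and title numbers. They do not describe replicates of a line or stage and may be too narrow. The share of cells with SNCG at 10 CPM (counts scaled to a common library size) or more was 69 of 72 (95.8%, 88.3 to 99.1) in p53+/+ and 24 of 43 (55.8%, 39.9 to 70.9) in p53-/-. The gene was thus detected everywhere, and the groups differed in level.

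The epithelial markers were found, with a median of 668 CPM for EPCAM, 2770 for KRT8, 2713 for KRT18 and 30.1 for CDH1, while CDX1 was at 0 in every cell. Among markers of other cells that make SNCG, the neuronal genes RBFOX3, SNAP25 and NEFL had counts in 14, 7 and 4 cells of the 2 lines, and the adipocyte genes ADIPOQ, PLIN1 and FABP4 in 1, 8 and 12. The summed neuronal level did not exceed 4.58 CPM in any cell, nor the adipocyte sum 9.91 CPM. Of PTPRC, PECAM1, COL1A1, COL1A2 and DCN, markers of blood, vessel and stromal cells, COL1A1 alone had a median above 0, at 2.50 CPM.

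The lines were set beside each other with CDKN1A, a target of p53. Its median was 988 CPM over the 72 p53+/+ cells and 172 CPM over the 43 p53-/- cells, and the log2 difference between the lines was -2.33 with an adjusted p of 0.0669 in edgeR. At [N] the medians were 72.4 and 83.8 CPM, and at [B] 1485 and 210 CPM. One [B] cell labelled p53-/- had CDKN1A at 2146 CPM, above the p53+/+ median of that stage. In the plot of SNCG against CDKN1A, the p53-/- cells lie towards low values of both genes, with cells of the lines overlapping between them.

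**Figure D1:**
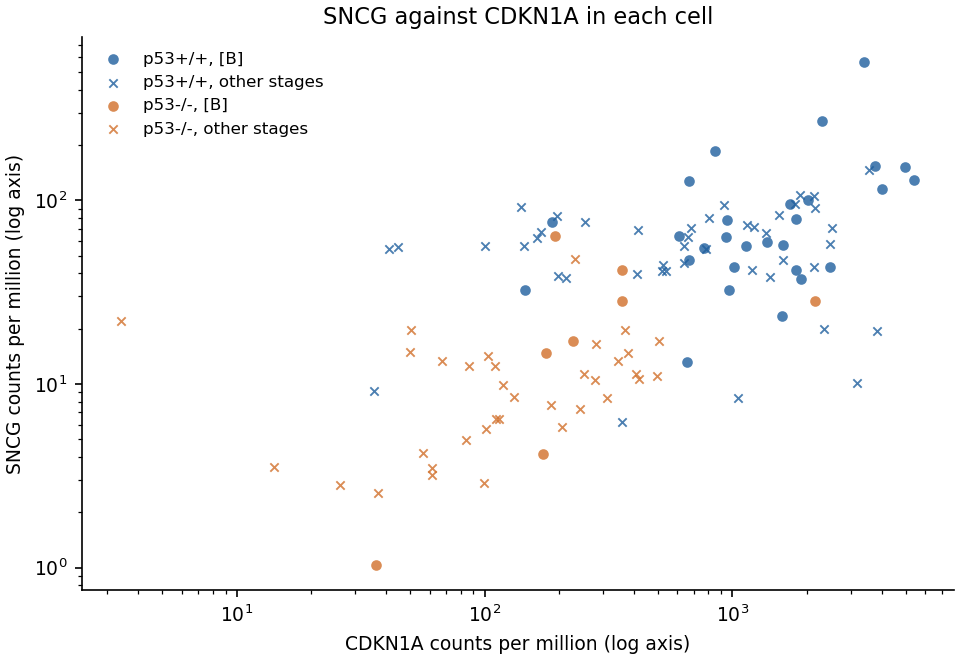
SNCG (vertical axis, CPM, log axis) against CDKN1A (horizontal axis, CPM, log axis) in each cell, coloured by the labelled line, with filled points for [B] and crosses for the other stages. The [B] cell with the most SNCG, at 566 CPM, is a p53+/+ cell, and the lowest, at 1.03 CPM, is labelled p53-/-.

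SNCG was lower in p53-/- than in p53+/+ cells at every stage. The 6 [N] p53+/+ cells had SNCG at 9.15, 38.6, 54.2, 55.9, 56.2 and 76.5 CPM. The 7 [N] p53-/- cells had a lowest value of 2.55, a median of 6.42 and a highest value of 13.4 CPM. Apart from 1 low p53+/+ cell, the lines did not overlap at [N]. The 11 [R] p53+/+ cells ran from 39.8 to 106.3 CPM with a median of 62.7, and the 8 [R] p53-/- cells from 2.88 to 14.9 CPM with a median of 6.07. At [R] no p53-/- cell reached the lowest p53+/+ cell. At [S] the 21 p53+/+ cells ran from 6.19 to 146 CPM around a median of 62.2, and the 9 p53-/- cells from 3.51 to 47.6 around 12.6 CPM. At [B] the ranges were 13.1 to 566 CPM (median 63.6) in p53+/+ and 1.03 to 63.6 CPM (median 22.6) in p53-/-. At [P] the 6 p53+/+ cells had values of 8.37, 10.1, 19.5, 20.02, 70.3 and 94.5 CPM, and the 11 p53-/- cells ran from 7.64 to 17.1 CPM with a median of 11.03. [P] was the stage where the lines came closest: 9 of its 11 p53-/- cells were at or above the lowest p53+/+ cell.

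**Figure D2:**
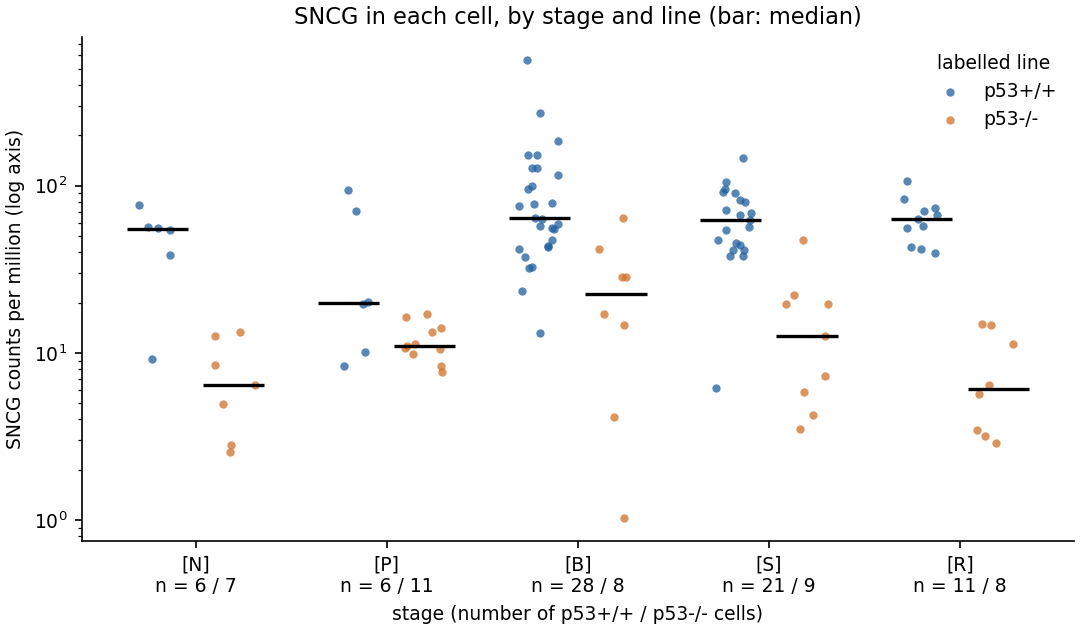
SNCG in CPM (vertical log axis) in each cell at the 5 stages (horizontal axis), with blue points for p53+/+ and orange points for p53-/- cells and a black bar at each group's median. The p53+/+ medians were 55.1, 19.8, 63.6, 62.2 and 62.7 CPM from [N] to [R], each above the p53-/- median of the same stage.

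Since cells of a stage and line are not replicates of it, counts were summed into 10 libraries, 1 for each stage and line, and the line difference was fitted over the 5 stages. Scaled by library size and composition (TMM), the sums held SNCG at 42.4, 26.7, 110, 69.7 and 60.1 CPM in p53+/+ and at 6.47, 11.9, 24.6, 13.4 and 6.86 CPM in p53-/-, from [N] to [R]. The p53+/+ level was 6.56 times that of p53-/- at [N], 2.25 times at [P], 4.47 times at [B], 5.21 times at [S] and 8.76 times at [R]. Over the stages the log2 difference was -2.32 with a standard error of 0.28 and an adjusted p of 0.0247 in edgeR's quasi-likelihood test, and SNCG had the 10th smallest p of 19894 genes. Of all genes tested 0.206% were called, 41 in number, of which 16 were higher and 25 lower in p53-/-. The direction was the same at 5 of 5 stages. The study named SNCG from stages that held cells of both lines. Of p53+/+ and p53-/- cells there were 28 and 8 at [B], 6 and 7 at [N] and 6 and 11 at [P]. If the lines were pooled for that choice, it favoured genes higher in p53+/+, so tests of the line were not free of it. Both lines enter as the same line 5 times, so the p describes how steady the difference was over stages of these cells, and not over independently made lines.

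The call was close to the threshold, though the size of the difference was steady. Leaving out either sum of [B], [R] or [S] kept the difference between -2.11 and -2.37 but brought the adjusted p to between 0.0647 and 0.128. With DESeq2, which called 1635 genes, it was -2.32 with an adjusted p of 3.4e-13.

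**Figure D3:**
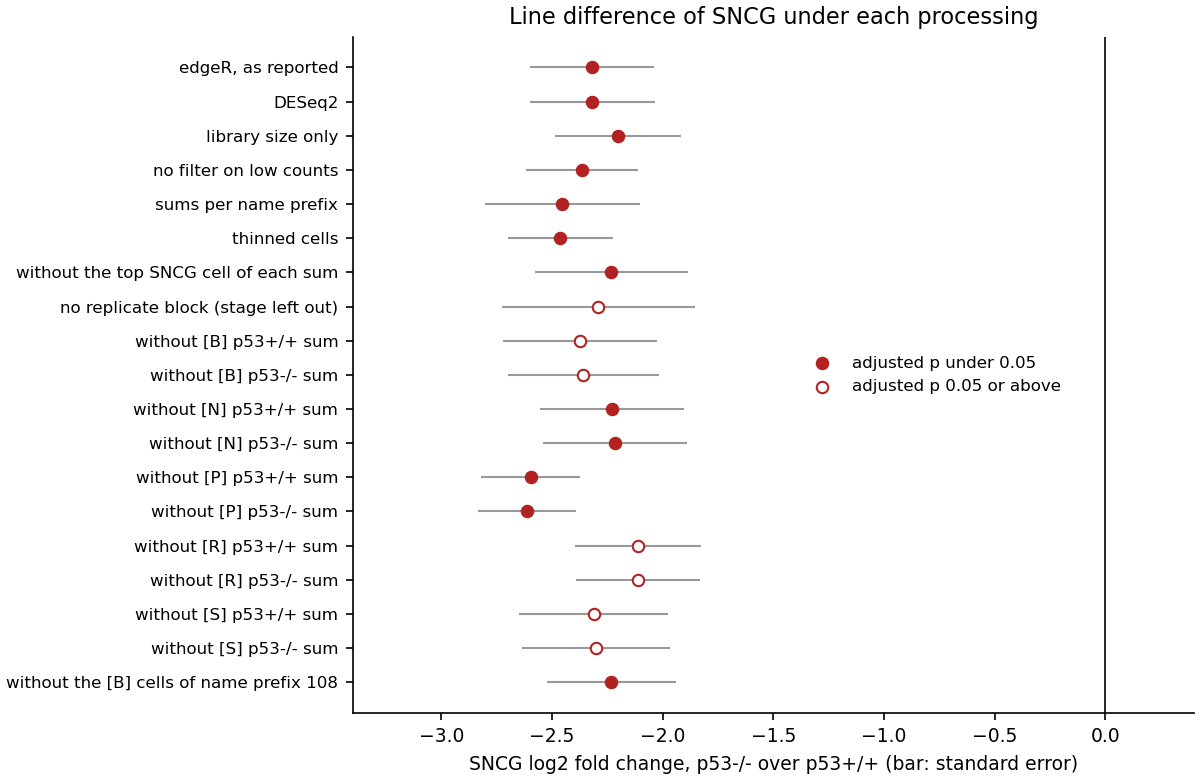
The log2 difference of SNCG between p53-/- and p53+/+ (horizontal axis, bars are standard errors) under each processing (vertical axis), with filled points where the adjusted p was under 0.05 and open points where it was not. All 19 values lie between -2.61 and -2.11, while 7 of them are open.

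The titles of the cells start with a number, 19 in all, whose meaning (a day, a dish or an experiment) the labels do not give. These prefixes allowed the lines to be compared inside one prefix and stage for 7 pairs, of which 6 had less SNCG in p53-/-. In prefix 0109 at [N], the 5 cells of each line gave sums of 55.5 and 7.97 CPM with no overlap. At [S] the sums were 94.4 against 5.84 CPM in prefix 1229, and 44.3 against 4.29 and 78.8 against 20.7 CPM in the others. The 5.84 CPM was a single p53-/- cell, and the other p53-/- sums at [S] held 2 cells each. At [P], prefix 1115 gave 27.7 against 14.9 CPM and its cells overlapped. The exception was the only pair at [B], prefix 1118, where the single p53-/- cell had 63.6 CPM and the pair of p53+/+ cells summed to 44.6 CPM. At [R] each line came with a single prefix of its own, so that line and prefix cannot be told apart there.

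At [B] the prefixes also served as units. Over 9 prefixes of p53+/+ cells the mean log2(CPM + 1) of the summed counts was 6.51 ± 0.77 (SD, n = 9), against 3.86 ± 1.85 (SD, n = 6) in p53-/-. The difference of -2.65 had p = 0.0012 in a two-sided exact permutation test over the 5005 splits. Of these units, 5 of the 6 p53-/- prefixes and 2 of the 9 p53+/+ prefixes were a single cell, so that the test in part compares cells, and its p does not describe replicates of the lines. Cells of 1 prefix may share a dish, and prefix 1118 was held by both lines.

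The study named SNCG for its level in [B] against [N] and [P], so the stage values below describe the choice and were not tested. No [B] cell had a prefix found at [N], so stage and prefix cannot be told apart in [B] against [N]. This applies to SNCG and to the calls of other genes below. The same holds for [B] against [P] in p53+/+. The [B] sum stood at 2.59 times the [N] sum in p53+/+ and at 3.80 times in p53-/-. The medians of the cells gave another picture in p53+/+: 63.6 CPM at [B] against 55.1 at [N], 19.8 at [P], 62.2 at [S] and 62.7 at [R], a ratio of 1.15 to [N] and 3.22 to [P]. In p53-/- the ratio of medians was 3.53. Against [N], the p53+/+ sum at [B] thus stood further apart than the median of the cells. A sum weights each cell by its depth, and there was a tail of high cells at [B]. At [N] the deepest p53+/+ cell, with 51580888 of the 146141551 counts of its sum, had SNCG at 9.15 CPM. Before TMM scaling that [N] sum was at 39.1 CPM, below the median of its cells.

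SNCG at 100 CPM or more was found in 11 of 72 p53+/+ and 0 of 43 p53-/- cells. They were 8 of 28 [B] cells (28.6%, 13.2 to 48.7), 2 of 21 [S] cells and 1 of 11 [R] cells, with 0 of 6 [N] and 0 of 6 [P] cells, which allows shares of up to 45.9% there (exact Clopper-Pearson 95% limit). The 8 [B] cells came from 5 prefixes. One prefix, the leftmost in the plot of SNCG by prefix and called the top prefix here, held 3 of them, at 566, 270 and 152 CPM, and its other 2 cells had 75.8 and 43.6 CPM. The highest, with 18020 SNCG counts, gave 19.6% of all SNCG counts of the [B] p53+/+ sum. Another prefix held 185 and 115.6 CPM, and a further 3 prefixes held 1 cell each, at 153, 128 and 127 CPM. Both high [S] cells, at 146 and 105.1 CPM, had prefix 1229. Without the 5 cells of the top prefix, which occurs only at [B] and only in p53+/+, the fitted [B] to [N] difference was 1.13 on the log2 scale in place of 1.46.

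A second mark was the highest [N] cell of the same line, 76.5 CPM in p53+/+ and 13.4 CPM in p53-/-. It was passed by 12 of 28 p53+/+ [B] cells (42.9%, 24.5 to 62.8) in 8 of 9 prefixes, and by 6 of 8 p53-/- [B] cells (75%, 34.9 to 96.8). At [S] it was passed by 7 of 21 and 4 of 9 cells, at [R] by 2 of 11 and 2 of 8, and at [P] by 1 of 6 and 3 of 11.

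Prefixes shared by [B] and [S] allow budding cells to be set beside progeny that may come from the same dish. In p53+/+ the [S] sum was below the [B] sum in 7 of 7 shared prefixes, by between 0.09 and 1.18 on the log2 scale, for example 56.2 against 127 CPM in prefix 707, where each value is 1 cell. By the medians of the cells [S] was above [B] in 3 of these 7 prefixes: 45.6 against 43.2 CPM in prefix 1219, 53.9 against 52.3 and 77.2 against 64.0 CPM in the other two. Over all p53+/+ cells the ratio of the [S] to the [B] median was 0.979. The single [S] cell of prefix 707 has in its title the letter that the titles otherwise give to [B] cells. Without it, the [S] sum was below in 6 of 6 prefixes. The cells overlapped in 5 of these 7 prefixes. In p53-/- the [S] sum was below in 1 of 4 shared prefixes, at 12.6 against 29.6 CPM, from 1 [S] and 3 [B] cells. It was above in the other 3, at 47.6 against 28.3, 19.7 against 1.03 and 4.22 against 4.14 CPM. Each value of these 3 was 1 cell. In the plot of SNCG by prefix, [B] and [S] points of p53+/+ lie among each other in most prefixes.

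**Figure D4:**
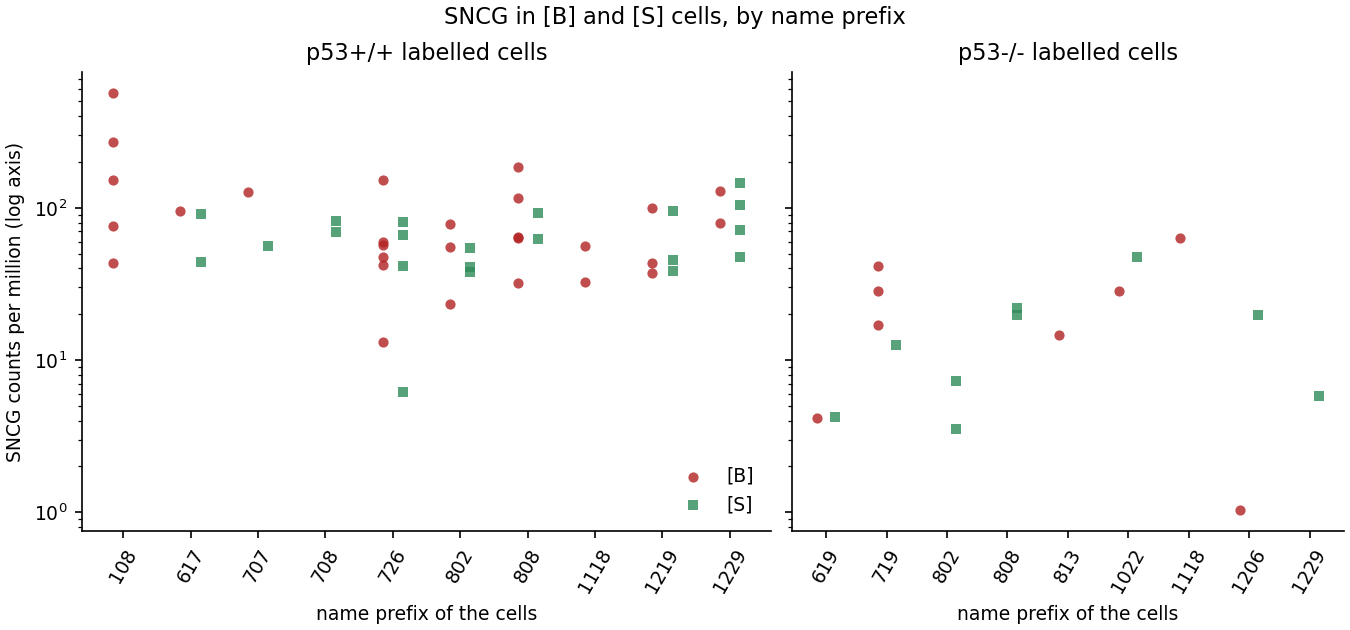
SNCG in CPM (vertical log axis) in [B] cells (red circles) and [S] cells (green squares) by the number that starts the cell's title (horizontal axis), with p53+/+ cells on the left and p53-/- cells on the right. The top prefix holds the 2 highest cells, at 566 and 270 CPM, and has no [S] cell.

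From [N] to [P] the lines went opposite ways in the sums, with a log2 difference of -0.67 in p53+/+ and 0.88 in p53-/-. Inside prefix 1115, the only one with both stages, [P] was above [N] in both lines, at 27.7 against 9.15 CPM in p53+/+ and 14.9 against 3.90 CPM in p53-/-. The p53+/+ value at [N] there was a single cell. From [P] to [B] in p53-/-, prefix 1118 gave 11.6 and 63.6 CPM and prefix 1206 gave 11.4 and 1.03 CPM, each [B] value from 1 cell.

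Repopulated cells were not among the stages on which SNCG was named, and were tested. The [N] cells they were set against did enter that choice, as a low group, so the test against [N] was not free of it. The [S] cells may have entered it as well, so the test against [S] may not have been free of it either. Every [R] cell had a prefix found at no other stage, so stage and prefix cannot be told apart there. The log2 difference of [R] from [N] was 0.45 with a standard error of 1.18 and an adjusted p of 0.951 (edgeR), and that of [R] from [S] was -0.31 with a standard error of 1.18 and an adjusted p of 0.937. Over all genes 0% were called for [R] against [N], 0 of 19894, with 1711 at an unadjusted p under 0.05 and 401 called by DESeq2. For [R] against [S] 0.0201% were called, 4 genes. These standard errors are wide because the lines, which differ in SNCG, stand as the only replicates of a stage. With the line as a block the values were 0.34 ± 0.41 and -0.53 ± 0.42 (± standard error), with adjusted p of 0.817 and 0.561. In p53+/+ the [R] median was 1.14 times that of [N] and 1.01 times that of [S]; in p53-/- it was 0.95 and 0.48 times.

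SNCB and SNCAIP were nearly silent beside SNCG. Per kilobase of annotated exon, the median SNCG level over all cells was 32.9 CPM per kb and the highest 448, while the medians of SNCB and SNCAIP, which encodes synphilin-1, were 0. SNCB had counts in 2 cells and SNCAIP in 10. SNCB and SNCAIP did not pass the filter on low counts.

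Of the 15 genes whose products are described as partners of γ-synuclein, 13 were tested. For [B] against [N] 0.658% of all genes were called, 131 of 19894, of which 41 were higher and 90 lower. Among the partners BUB1B was called, as lower. BUB1B had a log2 difference of -2.85 with a standard error of 0.50 and an adjusted p of 0.0421. Its [N] cells ran from 46.9 to 145 CPM in p53+/+ and from 54.6 to 199 CPM in p53-/-, while the [B] medians were 5.99 and 13.8 CPM, with single cells up to 190 and 90.2. The BUB1B call was lost when cells were thinned, when counts were summed per prefix, when library size alone was used for scaling, and when a sum of [B], [N], [P] or [R] was left out. The median difference of the 13 partners was -0.57, against 0.20 over all genes. HSPA8, which encodes the constitutive HSP70, stood at -1.18 with an adjusted p of 0.127, HSP90AB1 at -1.14 with 0.11 and MAPK3 at 1.08 with 0.185. Between the lines no partner was called (edgeR). BUB1B was at 0.78 in p53-/- over p53+/+ with an adjusted p of 0.0836, and 3 partners had an unadjusted p under 0.05. DESeq2 called 2 partners, BUB1B and HSPA1B. Over all 19894 genes 2766 had an unadjusted edgeR p under 0.05 between the lines, and DESeq2 called 1635.

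Since SNCG is known for its response to DNA methylation, writers and erasers of the mark were read as well. Of 7 genes, UHRF1 was called for [B] against [N], as lower. Over all genes 0.658% were called for [B] against [N], 131 of 19894, of which 41 were higher and 90 lower. UHRF1, which brings the maintenance enzyme DNMT1 to replicated DNA, had a log2 difference of -2.57 with a standard error of 0.36 and an adjusted p of 0.0219 (edgeR). DNMT1 was at -0.93 with an adjusted p of 0.208. The UHRF1 call was lost without any 1 sum of [B] or [N]. TET1, TET2 and TET3, which oxidise the mark, were at 0.75, 0.42 and 0.08, with adjusted p of 0.708, 0.718 and 0.956. None of the 7 was called between the lines by edgeR or DESeq2, with 3 at an unadjusted edgeR p under 0.05. Between the lines, over all 19894 genes, 0.206% were called by edgeR, 1635 genes were called by DESeq2 and 2766 had an unadjusted edgeR p under 0.05. No methylation was measured here.

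The promoter windows of SNCG in RefSeq, 250 bases before to 50 after each start, were searched for the 10-base consensus of a p53 half-site. A half-site is only a part of a full p53 site, and full sites were not searched for. The consensus reads the same on both strands. The window at chr10:86958349-86958648 had no match. The window of the upstream start at chr10:86955509-86955808 had 1, at chr10:86955758-86955767, within the RefSeq span of MMRN2. Over 35116 promoter windows of the same length 6.63% held a match. The match is shown in capitals within chr10:86955748-86955777 (GRCh38.p14, plus strand), because the line difference is the tested result on SNCG. Binding of p53 there was not tested.
SNCG upstream start: gagagagcatGGACTTGCCCtgtggagact

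In all, 6 protein-coding RefSeq genes lay within 100 kb of SNCG and 5 of them were tested. None of the 5 was called between the lines or for [B] against [N] by edgeR. Over all genes the shares called were 0.206% and 0.658%, so nothing about the locus is read from this. ADIRF, whose product promotes fat cell differentiation and whose RefSeq span starts downstream of the end of SNCG, had a line difference of -0.91 with an adjusted p of 0.381. Its medians were 680 and 265 CPM at [N] in p53+/+ and p53-/-, 736 and 1213 at [P], 1340 and 525.7 at [B], 936 and 269 at [S], and 376 and 188 at [R]. Apart from [P] it was thus higher in p53+/+ by these medians. MMRN2, which overlaps SNCG on the opposite strand, was at 0.58 with an adjusted p of 0.613, and its medians stayed between 2.82 and 12.7 CPM. BMPR1A, FAM25A and GLUD1 were at 0.20, 0.07 and -0.07, with adjusted p of 0.792, 0.978 and 0.94.

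Genes whose level followed SNCG from cell to cell in [B] were ranked by Spearman's rho on log2(CPM + 1) over the 36 [B] cells, among 16427 genes counted in at least 12 of them. These correlations are descriptions over cells that share lines and prefixes and carry no test. The median rho over all genes was -0.06. SNCG itself had a rho of -0.05 with the total count, -0.16 with the number of genes detected and 0.57 with CDKN1A. Over the 28 p53+/+ [B] cells the last was 0.44.

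GPX1, a glutathione peroxidase that removes hydrogen peroxide, led the ranking with a rho of 0.75 over all [B] cells, 0.69 in p53+/+ alone and 0.61 with each line's mean removed. SUGCT, a mitochondrial CoA transferase, followed with 0.74, 0.73 and 0.57. TP53I3, a quinone oxidoreductase gene induced by p53, had 0.74, 0.71 and 0.70. The first, GPX1, had medians of 800 and 278 CPM in p53+/+ and p53-/- [B] cells, and TP53I3 142 and 28.5 CPM. The next were KIAA1324, a gene of a membrane protein (0.73, 0.56 and 0.58), LOC101928100 (0.71, 0.66 and 0.60), ASS1, the argininosuccinate synthase of arginine synthesis (0.69, 0.65 and 0.67), and PHPT1, a phosphohistidine phosphatase (0.69, 0.55 and 0.52). HMCN2, RAMP1 and LOC105375901 closed the 10 with 0.67, 0.66 and 0.66, and had 0.55, 0.45 and 0.50 with the line means removed. RAMP1 encodes a partner of the calcitonin receptor-like receptor. The 11th gene, ISYNA1, was close behind at 0.65.

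The ranking pooled both lines, and SNCG differed between them, so genes that are lower in p53-/- were favoured by the choice. Nothing is therefore read from how many of the 10 were lower or were called between the lines. Their median line difference was -2.16, against -0.0047 over all genes. Of the 10, where 0.206% of all genes were called, ASS1 (log2 difference -1.40, adjusted p 0.0247) and RAMP1 (-2.14, adjusted p 0.0139) passed edgeR's test. TP53I3 was at -2.37 with an adjusted p of 0.052, and GPX1 at -0.88 with 0.115. With each line's mean removed, 9 of the 10 stayed within the first 100 genes but 2 within the first 10. With the mean of each line and prefix removed 4 stayed within the first 100, and TP53I3, GPX1, SUGCT and ASS1 had rho values of 0.62, 0.64, 0.65 and 0.62. In p53+/+ cells of the stages that did not enter the ranking, GPX1 had rho values of 0.77 at [N] (n = 6), 0.60 at [P] (n = 6), 0.68 at [S] (n = 21) and 0.52 at [R] (n = 11). TP53I3 had 0.09, 0.43, 0.59 and 0.32 there, while ASS1 had -0.49, -0.20, 0.32 and 0.07.

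At the other end were ECM1, an extracellular matrix protein gene (-0.75), PCF11, a factor that cuts 3′ ends of transcripts (-0.75), FOXD1, a forkhead transcription factor (-0.71), FANCM, a DNA repair helicase (-0.69), and OTUD5, a deubiquitinase (-0.68). In p53+/+ alone they had -0.67, -0.64, -0.62, -0.65 and -0.56. ECM1 had medians of 0.11 CPM in p53+/+ and 16.1 CPM in p53-/- [B] cells. With each line's mean removed they had -0.41, -0.62, -0.58, -0.44 and -0.47. With the mean of each line and prefix removed all 5 were closer to 0 than over all [B] cells, with OTUD5 at -0.14 and FOXD1 at -0.19. ECM1, at -0.48, was then further from 0 than with line means removed. A cell alone in its line and prefix, as in most p53-/- prefixes, loses its own value in the prefix version. Such cells still enter the ranks there, tied with each other for SNCG and for every other gene.

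**Figure D5:**
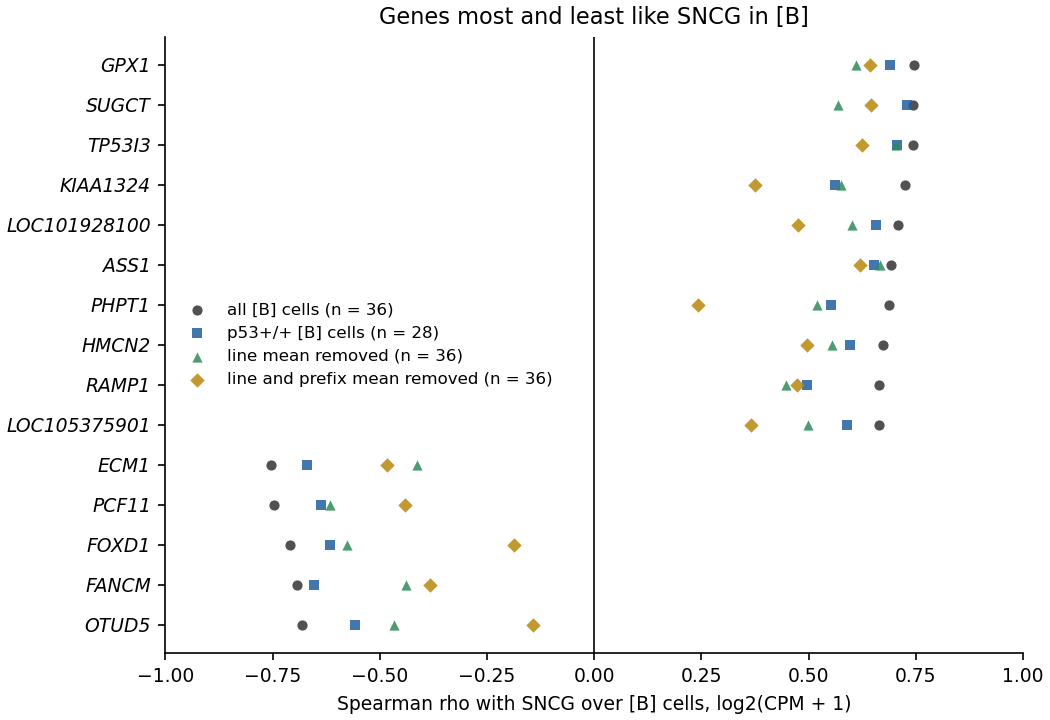
Spearman's rho with SNCG (horizontal axis) for the 10 genes most like it and the 5 least like it over [B] cells (vertical axis), over all 36 cells (circles), the 28 p53+/+ cells (squares), and with the mean of each line (triangles) or each line and prefix (diamonds) removed. GPX1, SUGCT, TP53I3 and ASS1 stay above 0.56 in each of the 4 versions.

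The study grouped SNCG with other genes into panels of the persister state on these same cells, so a shared direction between stages is not independent of that choice. The 31 such genes besides SNCG that were read here are a part of those panels, so no share of them is read against all genes. Among them the 3 most like SNCG were GPX1, ASS1 and ISYNA1 (0.65), and the 3 least like it were RN7SL2, a signal recognition particle RNA (-0.17), GFER, a sulfhydryl oxidase (-0.17), and CDC37, a kinase co-chaperone of HSP90 (-0.15). CST3, the cystatin C gene that stands for the other panel, had 0.58 over all [B] cells and 0.46 in p53+/+ alone. Between the lines ASS1, CCDC57 and GAMT were called, each lower in p53-/-. The uneven numbers of the lines over the stages may have favoured such genes in the study's choice, so nothing is read from these calls. GAMT, which makes creatine, was at -1.13 with an adjusted p of 0.0433, and CCDC57 at -1.19 with an adjusted p of 0.0488. CST3 was at -0.83 with an adjusted p of 0.214.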

How the data were processed

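Single cells were aspirated under a microscope, amplified full length (Vazyme N712) and made into tagmentation libraries without molecular identifiers. The deposited values are whole-number read counts per gene, which the authors made from their reads; the submitters' processing notes name fastp for cleaning, HISAT2 2.0, RSEM, Bowtie2 and DESeq2, and the builds GRCh38 and mm10. The study's methods add StringTie for estimating expression; which tool wrote the deposited counts, its strand setting and how batch effects were filtered are not given in the sources used here. Cells of a group had no stated cultures, so p-values measure the spread between sums of these cells, which may be technical. No libraries were identical, and 9490 of 43386 entries had no count.

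CPM were computed from column totals. Counts were summed per stage and line into 10 sums, filtered (filterByExpr, minimum count 10, and a count in at least 12 cells), scaled by TMM and fitted with robust edgeR 4.0.16 quasi-likelihood models in R 4.3.3 (stage terms, or stage and line for the line difference), with Benjamini-Hochberg adjustment over 19894 genes; standard errors are the log2 difference divided by the root of F. DESeq2 1.42.0 was an alternative. The [B] test over name prefixes was an exact permutation test (scipy 1.17.1). Scripts were tested on simulated data. SNCG, the gene lists and the tests were chosen with earlier results of these data known. Named genes were SNCG, its family, called members of the lists and BUB1B, protein-coding neighbours within 100 kb, CDKN1A, CST3, the 10 highest and 5 lowest in rho, and the 3 highest and lowest of the study's panel genes; other list members with values and the 11th gene in rho were added after their values were seen. Alternatives are in the closing section. The one without the [B] cells of the top prefix (the name prefix of the cell with most SNCG) was chosen after seeing the data. Some measured genes are not reported here. The labels give 72 p53+/+ and 43 p53-/- cells and were used as they stand, although the study's text gives other numbers for both lines. Replicate numbers follow accession order and pair nothing.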

Additional observations from a re-analysis of the deposited data

Results flagged for a closer look

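In a group of 4 to 10 cells, a cell was picked out when its gap to the next exceeded the 95% critical share of the group's range (Dixon). Of 6 groups looked at, 1 had such a cell: the highest of the 9 [S] p53-/- cells, at 47.6 CPM of SNCG, whose gap was 0.579 of the range where the critical share is 0.493. The shares were taken on CPM and not on the log scale used elsewhere, so how often chance gives such a cell here is not known. The [B] p53-/- cell of the same prefix had SNCG at 28.3 CPM.

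The difference of [P] from [N] had opposite signs in the lines, -0.67 in p53+/+ and 0.88 in p53-/- on the log2 scale of the sums. With 1 sum for each stage and line the difference between them was not tested, and inside prefix 1115 both lines had more SNCG at [P].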

How the results depend on the processing

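The line difference lay between -2.46 and -2.20 under 8 other settings and lost its call in 1 of them, where stage was left out (no replicate block, -2.29, adjusted p 0.0834); leaving out 1 sum gave -2.61 to -2.11, with 6 of 10 adjusted p at 0.05 or above. Leaving out a sum leaves the other sum of that stage alone, so the stage no longer informs the line difference. The [B] permutation test kept its call in 3 other settings, with a difference of -2.85 to -1.88, and without each prefix (-3.08 to -2.08).

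For [R] against [N] leaving out 1 sum gave -1.83 to 2.44; for [R] against [S] it gave -2.60 to 1.36. A stage then holds 1 line only, so the line difference enters these values, and its lone sum was assumed to vary like the others. With the line as a replicate block [R] against [N] was 0.34 and [R] against [S] -0.53, and no call changed.

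The untested stage values moved by more than the spread of the lines as follows. With sums per prefix [B] against [N] was 1.90, [S] against [B] -0.53 and [S] against [N] 1.37. For [S] against [B], leaving out the top SNCG cell of each sum gave -0.52 and leaving out the [B] cells of the top prefix -0.37. Leaving out 1 sum gave 0.0068 to 3.46 for [B] against [N], 0.34 to 2.51 for [B] against [P], -1.13 to 1.64 for [P] against [N], -2.38 to 0.74 for [S] against [B], -0.91 to 2.75 for [S] against [N] and -3.29 to 0.45 for [R] against [B].

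Of the partners, 5 were called for [B] against [N] with DESeq2, 2 with sums per prefix, 0 with library size only or thinned cells, and 0 to 1 when 1 sum was left out, where 1 was called as reported. Between the lines 2 were called with DESeq2, 1 with sums per prefix and 0 as reported. With sums per prefix 138 of all 19696 genes tested were called for [B] against [N] and 1275 between the lines. Of the methylation genes 0 to 1 were called for [B] against [N] without 1 sum. Over all genes DESeq2 called 2134 and edgeR without the filter 1276 for [B] against [N], where edgeR called 131 as reported. With the line as a block edgeR called 677 there. For [R] against [S] it called 76 with that block and 4 as reported. Between the lines DESeq2, edgeR without the filter and edgeR as reported called 1635, 412 and 41. Of the 10 genes most like SNCG, 3 were in the first 10 by Pearson's r, 5 in p53+/+ cells alone, 2 with line means removed and 0 with prefix means removed; the cause was not tested. At 10 CPM or more SNCG was found in 80.9% of cells.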
